A study of Mus musculus with 12 samples.

Results

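The interferon response genes described here are 9 of the 760 genes of a mouse NanoString nCounter panel (Fibrosis V2), an assay in which barcoded probes are counted for each target RNA. They were listed by symbol, with earlier results of these data known. They are the effector and response genes Isg15, Oasl1, Bst2, Ifi35, Ifi27, Xaf1 and Cxcl10, and the transcription factors Irf1 and Irf3. All 9 passed the filter on low values that left 594 genes to test. Oasl1 passed it through the HFD samples alone, since its linear value was under 20 in all 6 LFD samples. The 12 samples were myeloid cells of mammary glands from female FVB/N mice that ate a high-fat diet (HFD; 58Y1, Test Diet) or a low-fat diet (LFD; 2920X, Teklad Global) for 16 weeks from 3 weeks of age. Live CD45+CD11b+ cells of both diets were sorted by the surface protein CD34, giving HFD CD34-, HFD CD34+, LFD CD34- and LFD CD34+ groups of 3 samples each. The labels call the CD34- cells monocytes and macrophages and the CD34+ cells myeloid progenitors. The study set obese against lean mice in both populations. Replicate numbers within a diet behaved as animals, so that HFD animal 2, for example, gave a CD34- and a CD34+ sample.

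Interferons are secreted proteins by which cells warn one another of infection, and macrophages are both a source and a target of them. Type I interferons bind a shared receptor, and JAK kinases then activate STAT proteins, which with IRF9 bind the interferon-stimulated response element (ISRE) of antiviral genes. Interferon gamma, made mainly by T and NK cells, acts through STAT pairs on the gamma-activated site (GAS), and Irf1 is a classical target of that route. Irf3 works upstream: it is activated by phosphorylation when nucleic acid sensors fire and helps to switch on interferon beta, Isg15 and Cxcl10.

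The promoters of 5 of these genes are shown because they differ in the 2 kinds of element. Each window runs from 250 bases before the transcription start to 50 bases after it, read 5′ to 3′ on the gene's strand from RefSeq on build GRCm38.p6. Capitals mark every match to the ISRE core GAAANNGAA or to the GAS letters TTCNNNGAA, searched on both strands (the GAS letters read alike on both), and overlapping matches run together. The windows lie at chr4:156200769-156201068 on the minus strand (Isg15), chr5:92348840-92349139 on the minus strand (Cxcl10), chr5:114922990-114923289 on the plus strand (Oasl1), chr8:71537423-71537722 on the minus strand (Bst2) and chr11:53769764-53770063 on the plus strand (Irf1).
Isg15: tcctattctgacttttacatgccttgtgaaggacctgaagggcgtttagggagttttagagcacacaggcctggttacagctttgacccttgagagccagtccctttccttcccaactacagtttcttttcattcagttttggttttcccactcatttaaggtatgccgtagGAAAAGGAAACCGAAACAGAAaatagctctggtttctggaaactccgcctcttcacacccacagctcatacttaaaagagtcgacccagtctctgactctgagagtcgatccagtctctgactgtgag
Cxcl10: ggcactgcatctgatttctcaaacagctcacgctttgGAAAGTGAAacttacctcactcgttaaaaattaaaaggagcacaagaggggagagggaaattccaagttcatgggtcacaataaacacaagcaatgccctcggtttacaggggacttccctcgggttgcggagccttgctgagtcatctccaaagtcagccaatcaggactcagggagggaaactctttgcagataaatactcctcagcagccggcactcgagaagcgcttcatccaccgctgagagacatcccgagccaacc
Oasl1: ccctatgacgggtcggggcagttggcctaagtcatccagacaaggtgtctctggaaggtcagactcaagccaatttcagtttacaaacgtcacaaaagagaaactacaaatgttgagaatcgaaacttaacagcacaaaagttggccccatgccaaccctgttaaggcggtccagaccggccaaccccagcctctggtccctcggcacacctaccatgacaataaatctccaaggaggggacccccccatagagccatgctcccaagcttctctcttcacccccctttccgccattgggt
Bst2: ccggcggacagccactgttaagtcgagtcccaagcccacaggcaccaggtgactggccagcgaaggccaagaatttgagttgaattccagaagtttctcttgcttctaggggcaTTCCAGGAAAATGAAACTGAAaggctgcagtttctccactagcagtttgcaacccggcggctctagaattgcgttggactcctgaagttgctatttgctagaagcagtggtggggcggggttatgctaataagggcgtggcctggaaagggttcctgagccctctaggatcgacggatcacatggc
Irf1: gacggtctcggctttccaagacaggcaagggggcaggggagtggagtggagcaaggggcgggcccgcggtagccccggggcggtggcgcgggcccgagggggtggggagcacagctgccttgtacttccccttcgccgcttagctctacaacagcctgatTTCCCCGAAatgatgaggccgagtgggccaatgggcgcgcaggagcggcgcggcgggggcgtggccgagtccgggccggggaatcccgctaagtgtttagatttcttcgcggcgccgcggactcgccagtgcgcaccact

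Isg15 held 3 overlapping ISRE cores between bases -78 and -58 from the start. Cxcl10 held 1, between bases -213 and -205. Bst2 held 2 between bases -130 and -116, the first of which overlapped a GAS match between bases -136 and -128. Irf1 held a GAS match and no ISRE core, with the GAS between bases -90 and -82, and its second RefSeq window, at chr11:53770223-53770522, held neither. Ifi35 held a GAS match just inside the transcript, between bases 7 and 15, and the windows of Oasl1, Xaf1 and Irf3 held neither set of letters, which says nothing of elements elsewhere. Among all 32851 windows of the RefSeq table, 8.56% held the ISRE core and 8.30% the GAS letters, so a match is a description of the sequence and not evidence of binding. Of the 9 genes, 8 were matched to a window and Ifi27 was not.

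**Figure D1:**
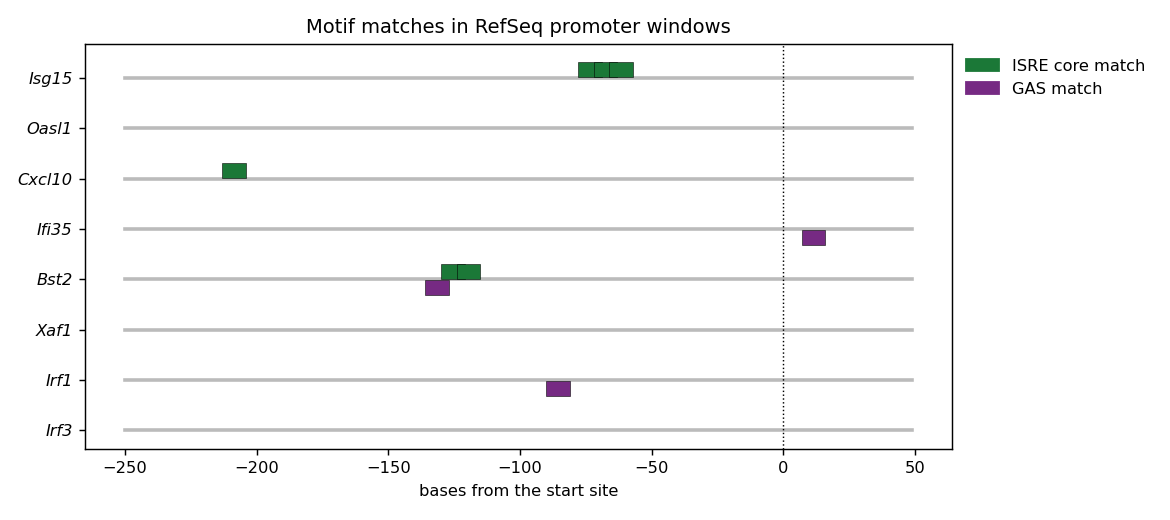
Positions of the ISRE core (GAAANNGAA) and GAS (TTCNNNGAA) matches in the RefSeq promoter windows of the genes, with distance from the transcription start in bases on the horizontal axis and 1 row per gene. Isg15 has a run of 3 ISRE cores between bases -78 and -58, Irf1 has a GAS match between bases -90 and -82, and Oasl1, Irf3 and Xaf1 have no match.

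Total counts recovered from the deposited values ran from 78316 in LFD CD34- replicate 3 to 780070 in HFD CD34+ replicate 3, and 1 count was the lowest value in every sample. Cd34 RNA followed the sort on the low-fat diet, at a log2 difference of -1.68 ± 0.49 (CD34- minus CD34+, SE, adjusted p = 0.0475). On the high-fat diet it did not pass the test (-0.34 ± 0.49, adjusted p = 0.707), and its values overlapped between the populations. Ptprc, which encodes CD45, was higher in HFD CD34- than in HFD CD34+ cells by 0.87 ± 0.19 (adjusted p = 0.0209). Macrophage genes were plentiful in all 4 groups and did not follow the labels. The median linear sum of 5 listed markers was 9262 in HFD CD34+ and 6882 in HFD CD34- samples, with overlap. For LFD samples it was 4991 and 2694. Cd163 (-2.53 ± 0.39, adjusted p = 0.00156, limma) and C3ar1 (-2.55 ± 0.55, adjusted p = 0.011) were lower in LFD CD34- than LFD CD34+ cells. None of the 5 passed between HFD populations. T and NK, B cell and neutrophil sums had higher medians in CD34- samples of both diets. HFD CD34+ replicate 2 stood apart in fibroblast genes. The linear sum of 4 of 7 listed fibroblast genes was 4940 there, against 545 and 671 in the other HFD CD34+ samples. None of the 6 listed markers of plasmacytoid dendritic cells, the main makers of type I interferon, is on the panel.

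Isg15, Oasl1 and Cxcl10 were the interferon genes with higher values on the high-fat diet in both populations, although most single tests fell short of the threshold. Isg15 encodes a ubiquitin-like protein that is attached to other proteins during the antiviral response. Its log2 values were 10.04, 9.25 and 9.83 in HFD CD34- replicates 1, 2 and 3, against 8.27, 8.08 and 8.86 in LFD CD34- cells. They were 11.16, 8.48 and 11.44 in HFD CD34+ cells, against 9.01, 8.65 and 8.76 in LFD CD34+ cells. The diets did not overlap in CD34- cells, while in CD34+ cells 2 HFD samples were the highest of all 12 and HFD replicate 2 was below every LFD CD34+ sample.

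Oasl1 encodes an oligoadenylate synthetase-like protein that in mice restrains translation of Irf7. Its log2 values were 6.54, 5.51 and 7.63 in HFD CD34- cells, against 3.49, 3.24 and 3.85 in LFD CD34- cells. In CD34+ cells they were 7.95, 4.70 and 8.12 on the high-fat diet, against 4.03, 2.06 and 4.04 on the low-fat diet. All 6 HFD samples lay above all 6 LFD samples, a pattern whose share among tested genes was not counted. The counts behind these values were 31 to 299 in HFD CD34- cells and 39 to 549 in HFD CD34+ cells, against 4 to 18 in LFD CD34- cells and 2 to 21 in LFD CD34+ cells, so the LFD levels are imprecise.

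Cxcl10 encodes a chemokine that draws activated T and NK cells through the receptor CXCR3. Its log2 values were 9.59, 8.80 and 9.42 in HFD CD34- cells, against 8.14, 7.41 and 8.58 in LFD CD34- cells. They were 10.48, 8.79 and 10.73 in HFD CD34+ cells, against 9.19, 8.20 and 8.70 in LFD CD34+ cells. As for Isg15, the diets were apart in CD34- cells and overlapped in CD34+ cells through HFD replicate 2.

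**Figure D2:**
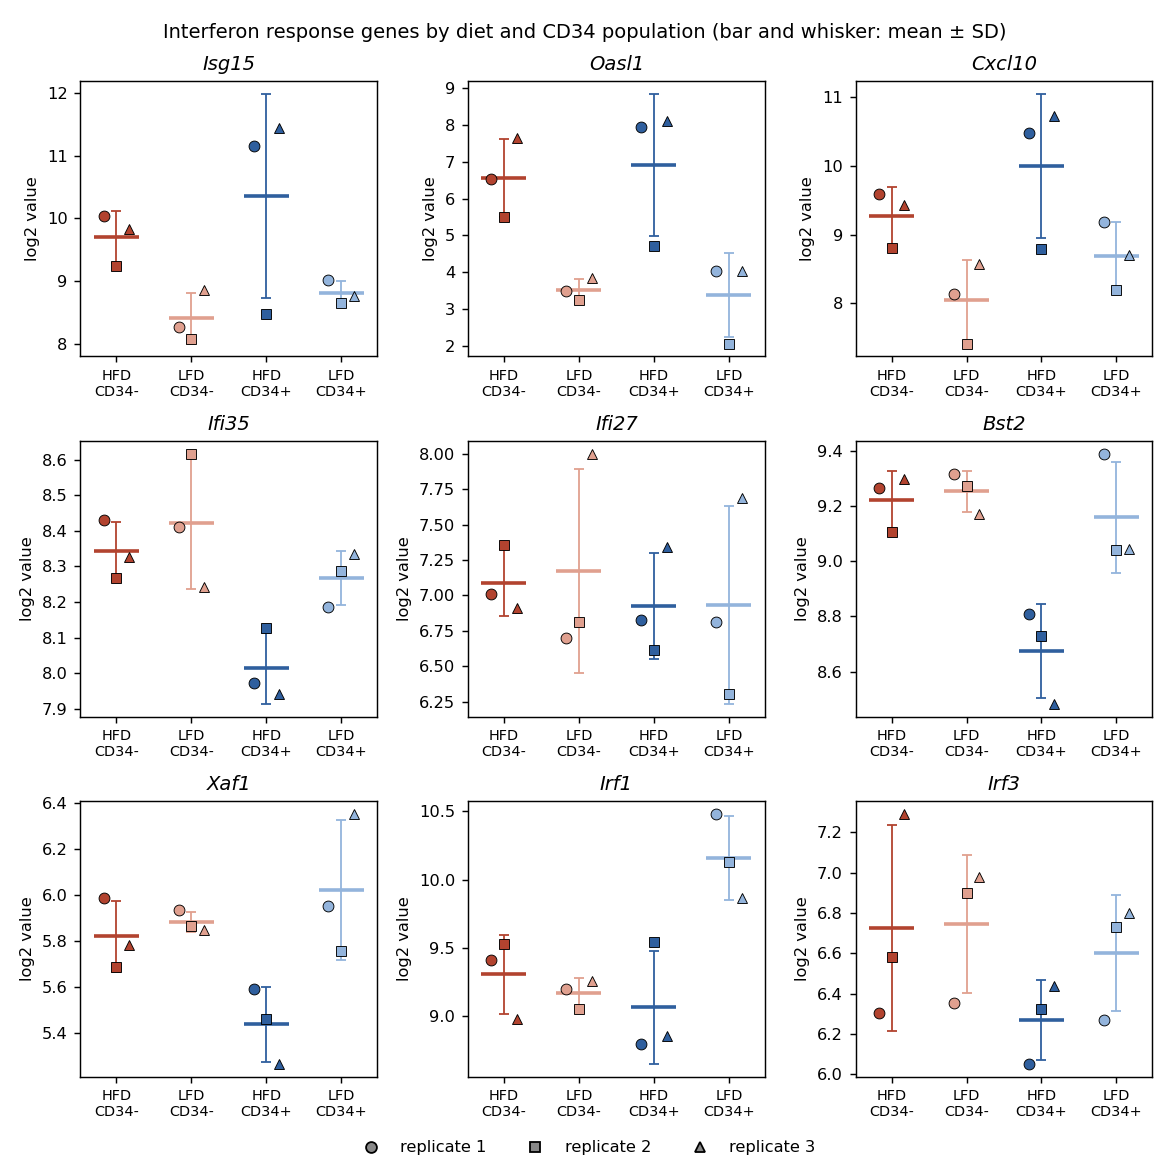
Deposited log2 values of the 9 genes in each sample, 1 panel per gene, with groups on the horizontal axis, symbols for replicates 1, 2 and 3, and bars and whiskers for the mean ± SD (n = 3). Oasl1 lies above the LFD samples in all 6 HFD samples, and Irf1 stands out in LFD CD34+ cells, at 9.87 to 10.48.

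In CD34+ cells Oasl1 was 11.7-fold higher on the high-fat diet, a log2 difference of 3.55 ± 0.84 (SE from limma, n = 3 each, Benjamini-Hochberg adjusted p = 0.0412). Oasl1 reached the filter through the groups where it was high, so that test is not independent of the filter. In the fit of all 760 genes without a filter its adjusted p was 0.0436 in CD34+ and 0.0577 in CD34- cells. Isg15 differed by 1.55 ± 0.57 (2.93-fold, adjusted p = 0.172) and Cxcl10 by 1.31 ± 0.47 (2.47-fold, adjusted p = 0.168), neither past the threshold of 0.05. In all, 2 of the 9 genes passed in CD34+ cells, Oasl1 higher and Irf1 lower, where 1.68% of tested genes passed as higher and 0.673% as lower. The groups were apart upward for Oasl1, a pattern of 8.42% of tested genes. In these bulk samples fewer cells of a type and less RNA per cell cannot be told apart.

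In CD34- cells the differences were of like size, at 3.04 ± 0.84 for Oasl1 (8.21-fold, adjusted p = 0.054), 1.30 ± 0.57 for Isg15 (2.46-fold, adjusted p = 0.201) and 1.23 ± 0.47 for Cxcl10 (2.34-fold, adjusted p = 0.132). None of the 9 passed there with limma, while 3 had an unadjusted p under 0.05, as did 130 of all 594 tested genes. Across the panel 5.05% of tested genes passed as higher and 0% as lower. With the animal as a block Oasl1 passed, with an adjusted p of 0.0306, while the shares just given are those of the fit without the block. HFD samples lay apart above LFD samples for these 3 genes, as for 28.3% of tested genes. The median of all tested genes was itself 0.34 higher in HFD CD34- cells, and with each sample re-centred on its median the differences were 2.72 for Oasl1, 0.98 for Isg15 and 0.91 for Cxcl10.

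HFD CD34+ replicate 2 weighed most on the diet difference in CD34+ cells. It had the lowest Oasl1, Isg15 and Cxcl10 of its group, so leaving it out could only raise these differences. Leaving out other single samples brought them as low as 2.89 for Oasl1, 1.01 for Isg15 and 0.94 for Cxcl10. Without HFD CD34+ replicate 2 the log2 difference was 4.66 ± 0.67 for Oasl1 (adjusted p = 0.00148), 2.49 ± 0.30 for Isg15 (adjusted p = 0.00101) and 1.91 ± 0.38 for Cxcl10 (adjusted p = 0.0119). With Irf1, 4 of the 9 genes then passed, among 29 of all tested genes. HFD CD34+ replicate 2 was also the library with the high sum of fibroblast genes, whose part in the result was not tested. The differences in CD34- cells are the same without it, but the shared spread of the fit is smaller, and Oasl1 (adjusted p = 0.0108), Isg15 (0.0147) and Cxcl10 (0.0475) then passed there, among 43 of all tested genes. The Oasl1 call in CD34+ cells was lost without LFD CD34- replicate 1 (adjusted p = 0.0638) or 2 (0.058), LFD CD34+ replicate 1 (0.0976) or 2 (0.204), HFD CD34- replicate 1 (0.0724), and HFD CD34+ replicate 1 (0.151) or 3 (0.152). It was lost too after quantile normalization (0.0654), without the mean-variance trend (0.0776) and in voom on the recovered counts (0.0891). In CD34- cells Oasl1 passed without LFD CD34+ replicate 2 (adjusted p = 0.0436), HFD CD34- replicate 2 (0.0451) or HFD CD34+ replicate 3 (0.0451).

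The 3 genes also varied together between samples of a group. In each of the 4 groups replicate 2 had the lowest Isg15, the lowest Oasl1 and the lowest Cxcl10. The gap to the next sample was widest in HFD CD34+ cells, at 2.67 for Isg15, 3.25 for Oasl1 and 1.68 for Cxcl10 on the log2 scale. Numbers do not mark shared mice between diets, so this joins 1 HFD animal and 1 LFD animal that share only a number. Within the high-fat diet, animal 2 was lowest in both of its populations, and animals 1 and 3 were higher in both. The share of tested genes with replicate 2 lowest in every group was not counted. Over all tested genes, deviations from the group means correlated at 0.306 to 0.434 between samples of a diet with the same number.

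**Figure D3:**
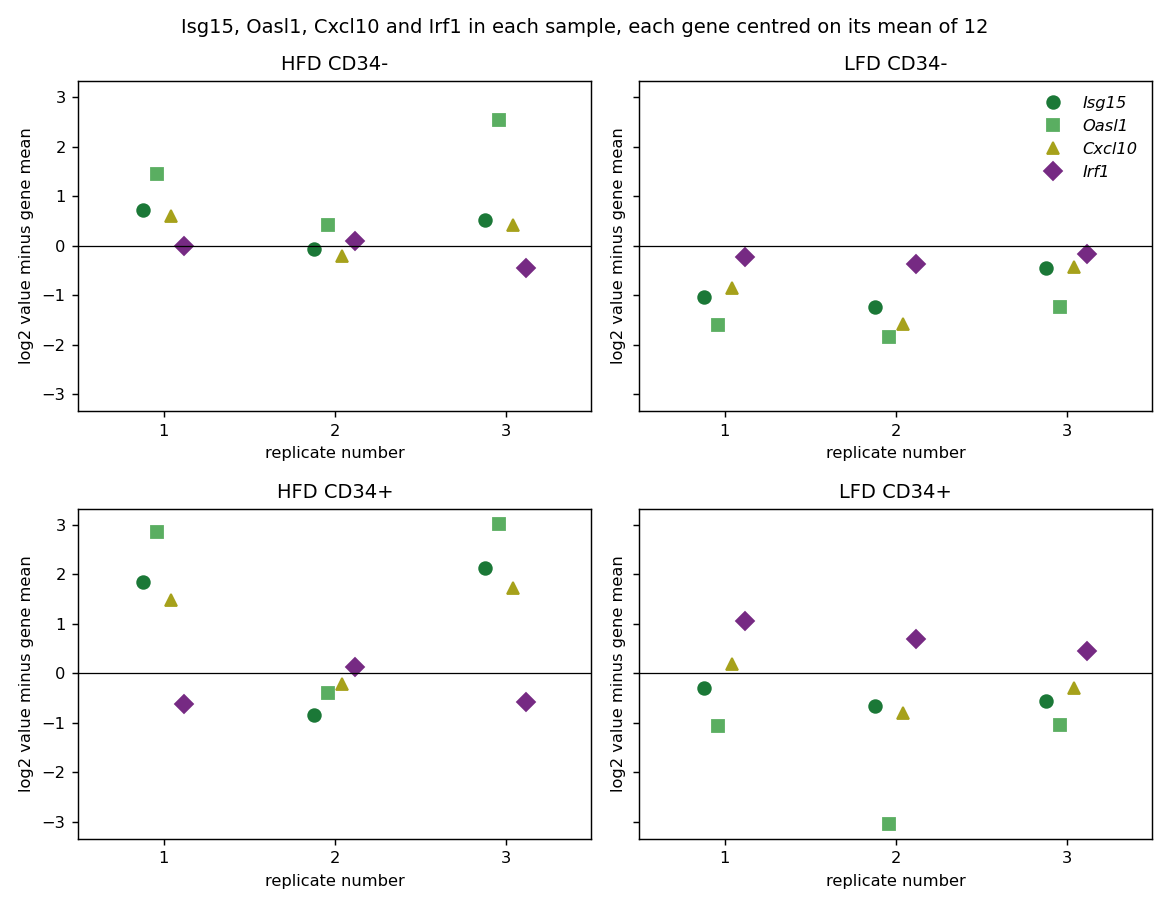
Log2 values of Isg15, Oasl1, Cxcl10 and Irf1, each centred on its own mean over the 12 samples (vertical axis), against replicate number, with 1 panel per group of diet and population and 1 symbol per gene. Isg15, Oasl1 and Cxcl10 are lowest in replicate 2 of every group, while Irf1 is highest in replicate 2 of both HFD groups.

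The summed RNA of macrophage markers was higher on the high-fat diet beside these genes. The linear sum of the 5 listed monocyte and macrophage markers on the panel, of 10 listed, was 4855 to 7796 in HFD CD34- cells against 2404 to 2696 in LFD CD34- cells. In CD34+ cells it was 7247 to 12362 on the high-fat diet against 3200 to 6245 on the low-fat diet. All 5 differences were positive, with 3 passing in CD34- and 1 in CD34+ cells, where 5.05% and 1.68% of tested genes passed as higher. Cd163 (0.05 ± 0.39, adjusted p = 0.957) and C3ar1 (0.01 ± 0.55, adjusted p = 0.998) hardly differed between diets in CD34+ cells. The median of all tested genes was itself 0.345 higher in HFD CD34- than in LFD CD34- cells. Cd14, a co-receptor for bacterial lipopolysaccharide, rose by 1.71 ± 0.39 in HFD CD34- cells (adjusted p = 0.0209) and by 1.70 ± 0.39 in HFD CD34+ cells (adjusted p = 0.0409). Of the listed fat cell markers, Fabp4, which macrophages also express, rose by 2.75 ± 0.43 in HFD CD34- cells (adjusted p = 0.0049) and by 1.89 ± 0.43 in HFD CD34+ cells (adjusted p = 0.0409). Adipoq, which marks fat cells more strictly, overlapped between diets, at 0.99 ± 0.64 in CD34- (adjusted p = 0.398) and -1.10 ± 0.64 in CD34+ cells (adjusted p = 0.392). The part of these cells in the Isg15, Oasl1 and Cxcl10 differences was not tested.

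Bst2, Ifi35 and Xaf1 did not follow that trio. Bst2 encodes tetherin, which holds budding virus particles at the cell surface. Its log2 values were 9.27, 9.11 and 9.30 in HFD CD34- cells, 8.81, 8.73 and 8.48 in HFD CD34+ cells, 9.32, 9.27 and 9.17 in LFD CD34- cells, and 9.39, 9.04 and 9.05 in LFD CD34+ cells. The 3 HFD CD34+ samples were the lowest of the 12, with no overlap with any other group.

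Ifi35, which encodes an interferon-induced leucine zipper protein, had log2 values of 7.97, 8.13 and 7.94 in HFD CD34+ cells, against 8.19, 8.29 and 8.33 in LFD CD34+ cells. Xaf1, which encodes a pro-apoptotic antagonist of the inhibitor of apoptosis XIAP, had 5.59, 5.46 and 5.27 in HFD CD34+ cells, against 5.95, 5.76 and 6.35 in LFD CD34+ cells. Both genes thus had their 3 lowest values in the HFD CD34+ group, as Bst2 did. How many tested genes share that pattern was not counted. In CD34- cells both stayed in narrow ranges: Ifi35 was 8.27 to 8.43 on the high-fat diet against 8.24 to 8.62 on the low-fat diet, and Xaf1 was 5.69 to 5.99 against 5.85 to 5.93.

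None of these 3 genes passed in a diet comparison. In CD34+ cells the high-fat minus low-fat difference was -0.48 ± 0.20 for Bst2 (adjusted p = 0.218), -0.58 ± 0.30 for Xaf1 (adjusted p = 0.334) and -0.26 ± 0.21 for Ifi35 (adjusted p = 0.571). With Irf1, 4 of the 9 genes lay apart downward in HFD CD34+ cells, where 11.4% of tested genes did. In CD34- cells the differences were -0.03 ± 0.20 for Bst2, -0.06 ± 0.30 for Xaf1 and -0.08 ± 0.21 for Ifi35. Relative to the upward shift of all genes they were lower: -0.35, -0.38 and -0.40 with each sample re-centred, and -0.48 ± 0.22, -0.49 ± 0.24 and -0.53 ± 0.26 after quantile normalization, in the same order (adjusted p of 0.354 to 0.375 in that fit). Ifi27, which encodes a small interferon-inducible protein, overlapped between diets in both populations. Its log2 values averaged 7.09 ± 0.23 in HFD CD34- cells against 7.17 ± 0.72 in LFD CD34- cells, and 6.93 ± 0.37 in HFD CD34+ cells against 6.93 ± 0.70 in LFD CD34+ cells (SD, n = 3 each), with diet differences of -0.08 ± 0.41 in CD34- cells and -0.01 ± 0.41 in CD34+ cells.

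**Figure D4:**
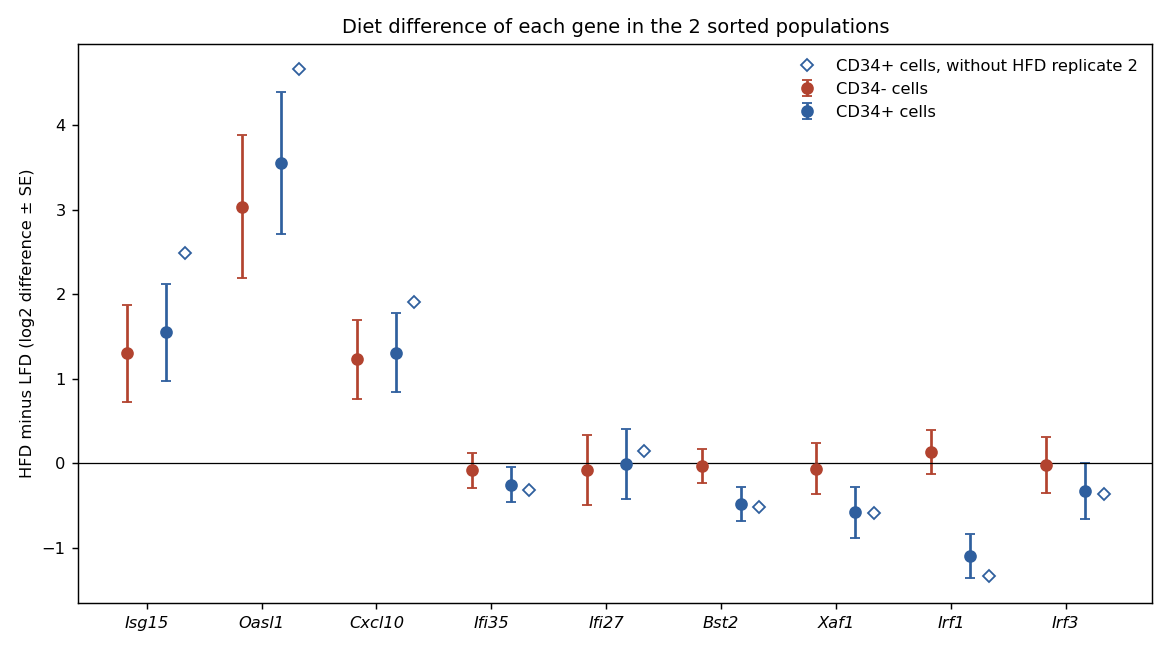
High-fat minus low-fat log2 difference of each of the 9 genes, with CD34- and CD34+ cells as separate points, bars of 1 SE from the limma fit, and open diamonds for the CD34+ value without HFD CD34+ replicate 2. That sample had the lowest Isg15, Oasl1 and Cxcl10 of its group. Oasl1 (3.04 in CD34- and 3.55 in CD34+ cells), Isg15 and Cxcl10 are above 0 in both populations, and Irf1 is at -1.09 in CD34+ cells and 0.14 in CD34- cells.

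Irf1 differed between diets in the opposite direction to the trio in CD34+ cells. It encodes a transcription factor that activates antigen presentation and antiviral genes. Its log2 values were 8.80, 9.54 and 8.85 in HFD CD34+ cells, against 10.48, 10.13 and 9.87 in LFD CD34+ cells. In CD34- cells they were 9.41, 9.53 and 8.98 on the high-fat diet, against 9.20, 9.05 and 9.26 on the low-fat diet. The 3 LFD CD34+ samples were the highest of the 12, and the other 3 groups overlapped one another. The share of tested genes with that pattern was not counted.

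Irf1 fell by 1.09 ± 0.26 on the log2 scale in HFD CD34+ cells relative to LFD CD34+ cells, a 2.13-fold lower level (adjusted p = 0.0412). In CD34- cells the diet difference was 0.14 ± 0.26 (adjusted p = 0.831), and it turned to -0.18 when each sample was re-centred on its median. Without HFD CD34+ replicate 2, the highest Irf1 value of its group, the difference in CD34+ cells was -1.33 ± 0.26 (adjusted p = 0.0101). The call in CD34+ cells was lost without LFD CD34- replicate 1 (adjusted p = 0.0638) or 2 (0.058), LFD CD34+ replicate 1 (0.177) or 2 (0.142), HFD CD34- replicate 1 (0.0724) or 2 (0.0502), and HFD CD34+ replicate 1 (0.15) or 3 (0.145). It was also lost with re-centred samples (adjusted p = 0.076), after quantile normalization (0.0551), without the filter (0.051) and without the mean-variance trend (0.0909).

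Between populations, Irf1 was the single gene of the 9 to pass, and it did so on the low-fat diet. It was 1.98-fold lower in LFD CD34- than in LFD CD34+ cells, a log2 difference of -0.99 ± 0.26 (adjusted p = 0.0271), and lower in 3 of 3 animals. On that diet 2.69% of tested genes passed as higher in CD34- cells and 7.07% as lower, and 18.9% lay apart downward, as Irf1 did. The call was lost without LFD CD34- replicate 1 (adjusted p = 0.0751) or 2 (0.0845) and without LFD CD34+ replicate 1 (0.128) or 2 (0.0538). It was lost too with re-centred samples (0.0675), after quantile normalization (0.0844) and with recovered counts in voom (0.131). On the high-fat diet the CD34- minus CD34+ difference of Irf1 was 0.24 ± 0.26 (adjusted p = 0.597), with 2 of 3 animals higher.

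The change of the population difference with diet was tested directly. For Irf1 it was 1.23 ± 0.36 (high-fat minus low-fat, adjusted p = 0.374), and with the animal as a block the same value had an adjusted p of 0.0468. No gene passed in the fit without the block (0% of tested genes), where 52 of 594 had an unadjusted p under 0.05. The same difference was -0.25 ± 0.81 for Isg15, -0.51 ± 1.19 for Oasl1 and -0.08 ± 0.66 for Cxcl10, with errors too wide to tell the populations' diet differences apart.

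On the high-fat diet none of the 9 genes passed between populations, while 6.9% of tested genes passed as higher in CD34- cells and 2.02% as lower. Of the 9, 1 had an unadjusted p under 0.05, against 140 of all 594 tested genes. That gene was Bst2, higher by 0.55 ± 0.20 in HFD CD34- cells (adjusted p = 0.11), and with the animal as a block it passed (adjusted p = 0.0203). In the fit with the block 142 of the 594 tested genes passed for this comparison. Bst2, Ifi35 and Xaf1 were higher in HFD CD34- than in HFD CD34+ cells in 3 of 3 animals and lay apart, as 23.4% of tested genes did. The median of all tested genes was itself 0.21 higher there, and with each sample re-centred the differences were 0.27 for Bst2, 0.046 for Ifi35 and 0.098 for Xaf1. After quantile normalization they were 0.36, -0.053 and 0.016. Isg15, Oasl1 and Cxcl10 were lower in HFD CD34- cells in animals 1 and 3 and not in animal 2, with differences of -0.65 ± 0.57, -0.36 ± 0.84 and -0.73 ± 0.47 in that order. Without HFD CD34+ replicate 2, Isg15 (-1.59, adjusted p = 0.0141) and Cxcl10 (-1.33, adjusted p = 0.0412) passed as lower in HFD CD34- cells. That sample was the lowest of its group in both genes, so leaving it out could only widen these differences.

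Irf3, whose protein is controlled mainly by phosphorylation, varied little. Its log2 values ran from 6.30 to 7.29 in HFD CD34- cells, 6.05 to 6.44 in HFD CD34+ cells, 6.35 to 6.98 in LFD CD34- cells and 6.27 to 6.80 in LFD CD34+ cells, and all groups overlapped. It was higher in the CD34- sample of each of the 6 animals. The difference was 0.45 ± 0.33 on the high-fat diet (adjusted p = 0.433) and 0.14 ± 0.33 on the low-fat diet (adjusted p = 0.874). These errors come from the fit that does not pair samples. With the animal as a block the SE was 0.242, and the adjusted p was 0.187 and 0.751 in the same order.

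The order of group means differed accordingly. For Isg15 and Cxcl10 it was HFD CD34+, HFD CD34-, LFD CD34+ and LFD CD34-, with Isg15 at 10.36 ± 1.63, 9.71 ± 0.41, 8.81 ± 0.19 and 8.41 ± 0.41 (SD, n = 3), and no neighbours in that order differed past the test where they were compared. Oasl1 had the same upper groups, at 6.93 ± 1.93 in HFD CD34+ and 6.56 ± 1.06 in HFD CD34- cells, then 3.53 ± 0.31 in LFD CD34- and 3.38 ± 1.14 in LFD CD34+ cells. For Irf1 the order was LFD CD34+ at 10.16 ± 0.31, HFD CD34- at 9.31 ± 0.29, LFD CD34- at 9.17 ± 0.11 and HFD CD34+ at 9.06 ± 0.42, and the lower 3 did not differ past the test where they were compared. By the order of means alone, HFD CD34+ cells were highest for the trio and lowest for the other 6 genes. How many tested genes had either order was not counted. The median of all tested genes was itself 0.215 higher in HFD CD34- than in HFD CD34+ cells. With each sample re-centred on its median, that difference was -0.042 for Irf1 and -0.12 for Ifi27, so HFD CD34+ cells were then not lowest for them. Part of that order lay within the error: Ifi27 differed from LFD CD34+ cells by -0.01 ± 0.41, and Irf3 overlapped between all groups.

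Likeness of pattern over the 12 samples was described by a distance that also reflects the size of a gene's changes. With each gene centred on its own mean, the tested genes nearest to Isg15 by root mean square log2 difference were the chemokine genes Ccl4 (0.28) and Cxcl10 (0.32), then Rapgef2 (0.50). Among 593 other genes Isg15 was at rank 541 for Irf1. Oasl1 was at rank 294 for Isg15, since its changes were larger. Ifi27, outside the trio, was nearer to Isg15 at rank 261, and Bst2 was at rank 398 and Irf1 at rank 491. The distance thus did not set the trio apart from the other genes. These distances describe 12 samples that share animals and panel, with no test.

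Of the other interferon pathway genes listed, 18 were on the panel, all of them tested. Of 13 listed ligand and receptor genes 2 were on the panel, Ifng and Ifngr1, and both passed as higher in CD34- cells on each diet, as 6.9% of tested genes did on the high-fat and 2.69% on the low-fat diet. Ifng, which encodes interferon gamma, had log2 values of 8.97, 8.73 and 7.82 in HFD CD34- cells against 5.98, 5.81 and 3.97 in HFD CD34+ cells. It had 8.71, 6.11 and 8.02 in LFD CD34- cells against 5.43, 4.96 and 5.41 in LFD CD34+ cells. The populations did not overlap on either diet, and the differences were 3.26 ± 0.63 (9.55-fold, adjusted p = 0.0151) on the high-fat and 2.35 ± 0.63 (5.08-fold, adjusted p = 0.0299) on the low-fat diet. Ifngr1, a chain of its receptor, was higher by 1.59 ± 0.32 (adjusted p = 0.0151) and 1.18 ± 0.32 (adjusted p = 0.0294) in the same order.

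T and NK cell genes were higher beside Ifng. The linear sum of 11 of 12 listed T and NK cell markers was 3383 to 6665 in HFD CD34- cells against 291 to 1245 in HFD CD34+ cells, and 3256 to 16447 in LFD CD34- cells against 1188 to 2536 in LFD CD34+ cells. Their part in the Ifng difference was not tested. Irf1 was lower in LFD CD34- than in LFD CD34+ cells, while Ifng was higher there. On the high-fat diet Ifng was also higher in CD34- cells, and Irf1 differed by 0.24 ± 0.26. A link between Ifng and Irf1 was not tested.

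Among 7 JAK-STAT genes, 1 passed, Jak2, lower by 0.95 ± 0.23 in LFD CD34- than in LFD CD34+ cells (adjusted p = 0.0207). Among the 5 other interferon-stimulated genes, Isg20, an exonuclease gene, was higher by 1.22 ± 0.31 in HFD CD34- cells (adjusted p = 0.03). Of all tested genes, 7.07% passed as lower in LFD CD34- cells and 6.9% as higher in HFD CD34- cells. Gbp5, which encodes a guanylate-binding protein of the interferon gamma response, was lower in LFD CD34- cells, at 5.69, 5.88 and 6.49 against 8.14, 7.47 and 7.07 in LFD CD34+ cells, a difference of -1.54 ± 0.33 (adjusted p = 0.0108). None of the other interferon regulatory factors on the panel, Irf4 and Irf8, and neither sensing gene, Myd88 and Tlr8, passed between populations on either diet.

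Between diets none of these 18 genes passed in either population. Of all tested genes, 1.68% passed as higher and 0.673% as lower in HFD CD34+ cells, and 5.05% and 0% in HFD CD34- cells. Gbp3, a further guanylate-binding protein gene, was apart and lower in HFD CD34+ cells (-0.65 ± 0.34, adjusted p = 0.341), as were Bst2, Ifi35, Xaf1 and Irf1. Myd88, an adaptor of Toll-like receptors, was apart and higher in HFD cells of both populations, by 0.95 ± 0.38 in CD34- (adjusted p = 0.159) and 1.14 ± 0.38 in CD34+ cells (adjusted p = 0.138). In CD34- cells the smallest adjusted p among the 18 was that of Stat3, which mediates cytokine signals such as interleukin 6, at 0.97 ± 0.27 (adjusted p = 0.0543). The next was that of Irf4, a factor of macrophage and lymphocyte maturation (0.91 ± 0.27, adjusted p = 0.0657). Tlr8, a receptor for RNA, differed by 1.07 ± 0.46 in CD34- cells (adjusted p = 0.19), and Psmb8, an immunoproteasome gene, by -0.50 ± 0.22 in CD34+ cells (adjusted p = 0.253). Cxcl11, a sister chemokine of Cxcl10, differed by -0.40 ± 0.64 in CD34- cells and by 0.49 ± 0.64 in CD34+ cells, with overlap in both.

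The median log2 difference over the 9 genes is set beside that of all tested genes. It was 0.24 against 0.21 for HFD CD34- minus CD34+ and 0.10 against -0.14 for LFD CD34- minus CD34+. For high-fat minus low-fat diet it was -0.26 against -0.01 in CD34+ cells and -0.02 against 0.34 in CD34- cells. The 9 genes did not share a sign: in CD34+ cells 3 of the 9 genes were positive and 6 negative, and in CD34- cells 4 were positive and 5 negative.

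The authors' deposited tables of genes selected for each comparison list Irf1 and Oasl1 among the 9. Irf1 is in the authors' deposited table of 31 genes for the populations on the low-fat diet and in that of 7 genes for diet in CD34+ cells. Oasl1 is in the authors' deposited table of 117 genes for diet in CD34- cells, and none of the 9 is in the 135 genes for the populations on the high-fat diet. The sources used here do not give the rule by which the authors selected those genes.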

How the data were processed

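RNA of sorted cells was amplified with a low-input kit and counted on the panel, per the labels' protocols. The authors deposited normalized log2 values of 760 genes in 12 samples. Its basis was not given in the sources used here. Each sample's values were log2 of whole counts plus 1 constant, so counts were recovered. Of a sample's values, 98.0% to 99.6% were whole within 0.1. The authors' deposited tables per comparison hold centred log2 values and the authors' cluster numbers (unit other). Counting error does not cover amplification.

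Genes needed 3 samples with a linear value of 20 or more, which left 594 genes and took out 166. The deposited log2 values were fitted in limma 3.58.1 (R 4.3.3, statmod 1.5.0) with 4 group means, a mean-variance trend and two-sided tests. Benjamini-Hochberg adjustment ran over all tested genes, and those under 0.05 passed. Errors of differences are SE from this fit, those of means are SD. With 3 samples a group an exact permutation test cannot go below p = 0.1, and was not run. The fit was tested on simulated data. Those samples were independent and changes were added to HFD CD34+ cells alone, so paired samples and the interaction were not covered.

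Deviations from the group means correlated at 0.306 to 0.434 between samples of a diet with the same number, and at -0.375 to 0.143 otherwise. The number was therefore taken as the animal within a diet, and as a random block in an alternative fit (consensus correlation 0.448). Nothing else in the labels ties samples to animals, so p-values measure the spread between these samples.

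Other alternatives were re-centring, quantile normalization, other filters, no trend, voom on recovered counts, and leaving out samples. The genes and lists were chosen with earlier results of these data known. Named genes were the 9, and of each pathway list the members that passed, up to 4, or else up to 2 with the smallest p, with Ifng, Cd34 and Ptprc. The 3 genes nearest in pattern to Isg15 were named too. Some genes that the rule takes, among them those nearest to Irf1, are not reported here. Cd14, Fabp4, Adipoq and Cxcl11 were named after their values were seen. Promoter sequences came from RefSeq (GRCm38.p6), with windows for 8 of the 9 genes.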

Additional observations from a re-analysis of the deposited data

Results flagged for a closer look

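The change of the CD34- minus CD34+ difference of Irf1 with diet was 1.23 on the log2 scale. With the animal as a block it passed the test of the difference itself (adjusted p = 0.0468, limma), and without the block it did not (adjusted p = 0.374). Irf1 was lower in CD34- cells in 3 of 3 LFD animals and in 1 of 3 HFD animals.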

How the results depend on the processing

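Of the single-gene differences under each alternative, 794 kept their direction and side of the threshold, 21 newly passed, 29 no longer passed and 56 changed sign, all 56 in differences that had not passed. In every alternative run, Isg15, Oasl1 and Cxcl10 stayed higher and Irf1, Bst2, Xaf1 and Ifi35 lower in HFD than in LFD CD34+ cells. Few counts limit Oasl1 on the low-fat diet, and 3 samples a group limit every test. Causes of the changes below were not tested.

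With the animal as a replicate block, the genes that passed among the 9 numbered 1 for populations on the high-fat diet (Bst2), 1 for diet in CD34- cells (Oasl1) and 1 for the interaction (Irf1), against 0 in each without it. Over all genes the block gave 142 against 53 for populations on the high-fat diet, 131 against 58 on the low-fat diet, and 7 against 0 for the interaction. The block changed no other call among the 9 genes. It paired samples within a diet.

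For populations on the high-fat diet, voom gave 1 of the 9 genes, the fit without a trend 35 of all genes, and the fit without HFD CD34+ replicate 2 and LFD CD34- replicate 3 together 2 of the 9 and 90 of all. On the low-fat diet, where 1 of the 9 passed, re-centring, quantile normalization and voom each gave 0, and voom gave 23 of all genes. For diet in CD34+ cells, where 2 of the 9 and 14 of all genes passed, re-centring gave 1 of the 9, quantile normalization 0 and 7 of all, no filter 1, no trend 0 and 0 of all, voom 1 and 22 of all, and the 2 libraries left out together 4 and 53 of all. For diet in CD34- cells, where 30 of all genes passed, re-centring gave 17, quantile normalization 13, voom 11, and the 2 libraries left out gave 3 of the 9. They gave 1 gene over all for the interaction.

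Leaving out 1 sample at a time, the count among the 9 was 0 to 2 for populations on the high-fat diet, 0 to 1 on the low-fat diet, 0 to 4 for diet in CD34+ cells and 0 to 3 in CD34- cells. Over all genes it was 0 to 78, 26 to 69, 0 to 29 and 4 to 43 in the same order.

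Signs turned as follows. For populations on the high-fat diet, re-centring gave Irf1 -0.042 and Ifi27 -0.12, and quantile normalization gave Ifi35 -0.053 and Ifi27 -0.177. On the low-fat diet, voom gave Xaf1 0.061, and the 2 libraries left out gave Oasl1 -0.012 and Ifi27 -0.178. For diet in CD34+ cells Ifi27 was 0.008 with re-centring and 0.15 without the 2 libraries. For diet in CD34- cells Irf1 was -0.181 with re-centring, -0.231 after quantile normalization and -0.172 in voom, and without the 2 libraries Irf3 was 0.099 and Ifi27 0.335. For the interaction, re-centring and quantile normalization gave Irf3 -0.019 and -0.075 and Ifi35 -0.156 and -0.357, and Ifi27 was 0.185 without the 2 libraries.

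Differences that changed sign when 1 sample was left out had these ranges. Between populations on the high-fat diet Oasl1 ran from -1.473 to 0.235. On the low-fat diet Oasl1 ran from -0.511 to 0.482, Irf3 from -0.022 to 0.34, Ifi27 from -0.178 to 0.613 and Xaf1 from -0.27 to 0.027. For diet, Ifi27 ran from -0.32 to 0.37 in CD34+ cells. In CD34- cells Irf3 ran from -0.302 to 0.193, Ifi35 from -0.172 to 0.016, Ifi27 from -0.314 to 0.335, Bst2 from -0.071 to 0.028 and Xaf1 from -0.146 to 0.004. For the interaction Isg15 ran from -1.188 to 0.29, Oasl1 from -1.623 to 0.149, Ifi27 from -0.45 to 0.341 and Cxcl10 from -0.681 to 0.289.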
